A study of Mus musculus with 16 samples.

Results

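Hyaluronan, proteoglycan and matricellular genes of the embryonic mouse outflow valves were described here through 10 genes: Has2, Hapln1, Vcan, Bgn, Dcn, Lum, Postn, Tnc, Sparc and Cd44. They were chosen by name, and all 10 were found among the 13964 genes of the deposited table. The table holds RNA sequencing values of aortic and pulmonary valves cut by laser microdissection from embryos of stage E14.5 on a C57BL/6 background. There were 4 groups of 4 libraries: mutant aortic, wild-type aortic, mutant pulmonary and wild-type pulmonary valve. The mutants are labelled Jag1flox;Nkx2.5-Cre, that is, they carry a floxed allele of the Notch ligand gene Jag1 and a Cre recombinase driven by Nkx2.5, which is active in cells of the cardiac lineage, while the wild-type embryos are labelled WT. Whether 1 or both Jag1 alleles were floxed, whether a library is a single embryo or a pool, and the sex of the embryos are not stated by the labels or notes at hand. Same-numbered mutant and wild-type libraries of a valve came from the same litter, with 5 litters in all, of which 3 gave both valves. Aortic libraries were made as batch 1 and pulmonary libraries as batch 2, which means that a valve difference cannot be told apart from a batch difference.

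Growing valve leaflets are cushions of mesenchymal cells in a swollen, hyaluronan-rich matrix that is later sorted into layers. Hyaluronan is a long sugar chain made at the cell surface by synthases such as Has2. The large proteoglycan versican (Vcan) binds it, the link protein Hapln1 locks that bond, and Cd44 is its cell-surface receptor. Biglycan (Bgn), decorin (Dcn) and lumican (Lum) are small leucine-rich proteoglycans that bind collagen fibrils. Periostin (Postn), tenascin C (Tnc) and osteonectin (Sparc) are matricellular proteins, secreted proteins that sit in the matrix and modify how cells attach to it and how it is assembled. In mice, loss of Has2 or Vcan stops endocardial cushion formation, and loss of Postn disturbs valve maturation.

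On genome build GRCm38 with the GENCODE annotation, the hyaluronan synthase gene Has2 (ENSMUSG00000022367) lies at chr15:56665627-56694539 on the minus strand, and the receptor gene Cd44 (ENSMUSG00000005087) at chr2:102811141-102901665 on the minus strand. Hapln1 (ENSMUSG00000021613, chr13:89539796-89611652, plus strand) and Vcan (ENSMUSG00000021614, chr13:89655312-89742509, minus strand) are neighbours 43.7 kb apart. Dcn (ENSMUSG00000019929, chr10:97479609-97518143, plus strand) and Lum (ENSMUSG00000036446, chr10:97565128-97572703, plus strand) are neighbours 47.0 kb apart, and no protein-coding gene lies between the genes of either pair. Bgn (ENSMUSG00000031375) lies at chrX:73483602-73495933 on the plus strand and Postn (ENSMUSG00000027750) at chr3:54361109-54391037 on the plus strand. Tnc (ENSMUSG00000028364) lies at chr4:63959785-64047015 and Sparc (ENSMUSG00000018593) at chr11:55394500-55423183, both on the minus strand. Values are given per gene, and the notes at hand do not state which exons or isoforms were counted. Has2, Vcan and Tnc overlap the transcripts Has2os, Gm4117 and 8030451A03Rik on the other strand. Hapln1 and Vcan also overlap the processed pseudogenes Gm8546 and Gm16318, and Cd44 the small nuclear RNA gene Gm23731, each on the other strand. With no strand setting stated for the counting, reads of such partners cannot be told apart from those of the gene.

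RefSeq promoter windows of build GRCm38.p6 were at hand for 7 of the 10 genes, and Has2, Dcn and Lum had no entry. The 250 bases before the start are shown for the core matrix genes Vcan and Postn, which had the most similar profiles of all pairs of the 10 genes, and for Bgn and Cd44, as examples of a small proteoglycan and of the receptor. They are chr13:89742513-89742762 on the minus strand for Vcan, chr3:54360857-54361106 on the plus strand for Postn, chrX:73483351-73483600 on the plus strand for Bgn and chr2:102901666-102901915 on the minus strand for Cd44, each read 5′ to 3′ on the gene's strand. Capitals mark matches, on either strand, to TGGGAA (the core recognised by RBPJ, the DNA-binding protein of Notch signalling), to the TATA box letters TATAAA, and to the GC box letters GGGCGG, which appear as TTCCCA and CCGCCC on the opposite strand.
Vcan: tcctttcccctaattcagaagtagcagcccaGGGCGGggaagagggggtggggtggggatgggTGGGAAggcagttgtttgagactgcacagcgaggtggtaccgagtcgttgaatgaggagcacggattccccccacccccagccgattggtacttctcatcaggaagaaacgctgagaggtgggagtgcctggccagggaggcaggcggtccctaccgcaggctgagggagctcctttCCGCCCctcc
Postn: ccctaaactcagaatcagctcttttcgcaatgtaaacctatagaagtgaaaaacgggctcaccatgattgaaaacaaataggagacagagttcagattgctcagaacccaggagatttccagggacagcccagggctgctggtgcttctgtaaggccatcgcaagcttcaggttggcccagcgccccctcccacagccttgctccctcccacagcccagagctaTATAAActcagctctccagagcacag
Bgn: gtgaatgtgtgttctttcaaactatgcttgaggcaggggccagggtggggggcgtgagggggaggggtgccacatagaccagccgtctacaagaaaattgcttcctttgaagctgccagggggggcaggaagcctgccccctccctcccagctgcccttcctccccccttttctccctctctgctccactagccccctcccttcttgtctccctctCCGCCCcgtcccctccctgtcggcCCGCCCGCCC
Cd44: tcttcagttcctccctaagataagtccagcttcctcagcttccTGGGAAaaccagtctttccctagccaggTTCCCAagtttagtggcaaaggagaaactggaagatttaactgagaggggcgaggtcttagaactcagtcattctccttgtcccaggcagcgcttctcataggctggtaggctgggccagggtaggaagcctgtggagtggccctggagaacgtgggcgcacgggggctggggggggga
Vcan held TGGGAA with its first base 187 bases before the start, and GC boxes at 219 and 10 bases before it. Cd44 held the RBPJ core at 207 and 179 bases before its start, on opposite strands. Postn held TATAAA 26 bases before its start, and Bgn held GC boxes at 34, 10 and 6 bases, the last 2 of which overlap each other. Another Postn window, chr3:54359017-54359266 on the plus strand, is not shown and held none of these matches. Over the 9 windows of the 7 genes, 4 held TGGGAA, 3 held TATAAA and 4 held GGGCGG. The 2 Tnc windows overlap and share their TATAAA and GGGCGG sites, so by gene the counts were 3, 2 and 3 of 7. Of all 32851 RefSeq windows of the same length, 21.6% held TGGGAA, 12.4% TATAAA and 32.7% GGGCGG. These are letter matches only, and no binding was measured.

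Values are the authors' normalised counts, which are CPM rescaled by a trimmed-mean (TMM) factor, written below as units. Libraries held 4.56 to 8.68 M reads (M, megareads) with a median of 7.37 M, and each of the 10 genes had 128 to 36709 reads per library. Jag1 (chr2:137081456-137116644) was at 9.90, 11.4, 5.93 and 10.2 units in mutant aortic libraries 1 to 4, against 20.2, 54.7, 39.7 and 18.8 units in wild-type aortic libraries. It was at 12.4, 4.70, 3.78 and 1.85 units in mutant pulmonary libraries, against 13.6, 19.2, 25.7 and 15.4 units in wild-type pulmonary libraries. No mutant library reached the lowest wild-type library of its valve. In 6 libraries the skeletal muscle myosin light chain gene Mylpf was below 100 units, between 0.569 and 23.2, namely mutant aortic 4, wild-type aortic 2 and 4, mutant pulmonary 4 and wild-type pulmonary 2 and 4. In the other 10 it was between 278 and 900 units. The 14 of 15 skeletal muscle markers in the table summed to 3.41 to 70.3 units in those 6 libraries, in each of which 1 to 8 of them were at 0, and to 782 to 2488 units in the other 10, in which none was at 0. Of the valve mesenchyme markers (Tbx20, Sox9, Twist1 and others), 10 of 10 were above 0 in every library. They summed to 1474 to 2509 units where Mylpf was below 100 and 524 to 1554 units in the other libraries. Tbx20 is part of these sums, which were 1186 to 1474 units in mutant aortic libraries, where Tbx20 itself was 102 to 1032 units. Detection of these markers does not by itself show how much of a library was valve tissue. Endothelial and endocardial markers summed to 1088 to 2103 units where Mylpf was below 100 and 266 to 1086 units elsewhere. In 5 libraries, mutant aortic 1, wild-type aortic 1 and 3, mutant pulmonary 1 and wild-type pulmonary 1, the valve transcription factor gene Tbx20 was between 98.0 and 123 units, against 549 to 1744 units in the other 11. In such bulk samples fewer cells of a type and less RNA per cell cannot be told apart.

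No genotype or valve difference of the 10 matrix genes passed the test, while the same genes spanned 3.24-fold to 13.2-fold between single libraries. Differences below are log2 differences on the log2(value + 1) scale from limma over all 16 libraries, with the 95% interval and a Benjamini-Hochberg adjusted p over 13963 tested genes. In both genotype comparisons 0 of the 10 genes passed an adjusted p of 0.05, beside 0% of all tested genes in the aortic valve and 0% in the pulmonary valve. Where no adjusted p is given for a member in these comparisons, it was 1.00 with limma. Before adjustment, 196 genes of the aortic and 437 of the pulmonary comparison had a limma p under 0.05. Both counts are shares below 0.05 of the 13963 tested genes, so fewer than evenly spread p-values would give. The same comparisons gave 0 genes each with edgeR, and 0 aortic and 2 pulmonary genes with DESeq2, none of them a member.

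**Figure D1:**
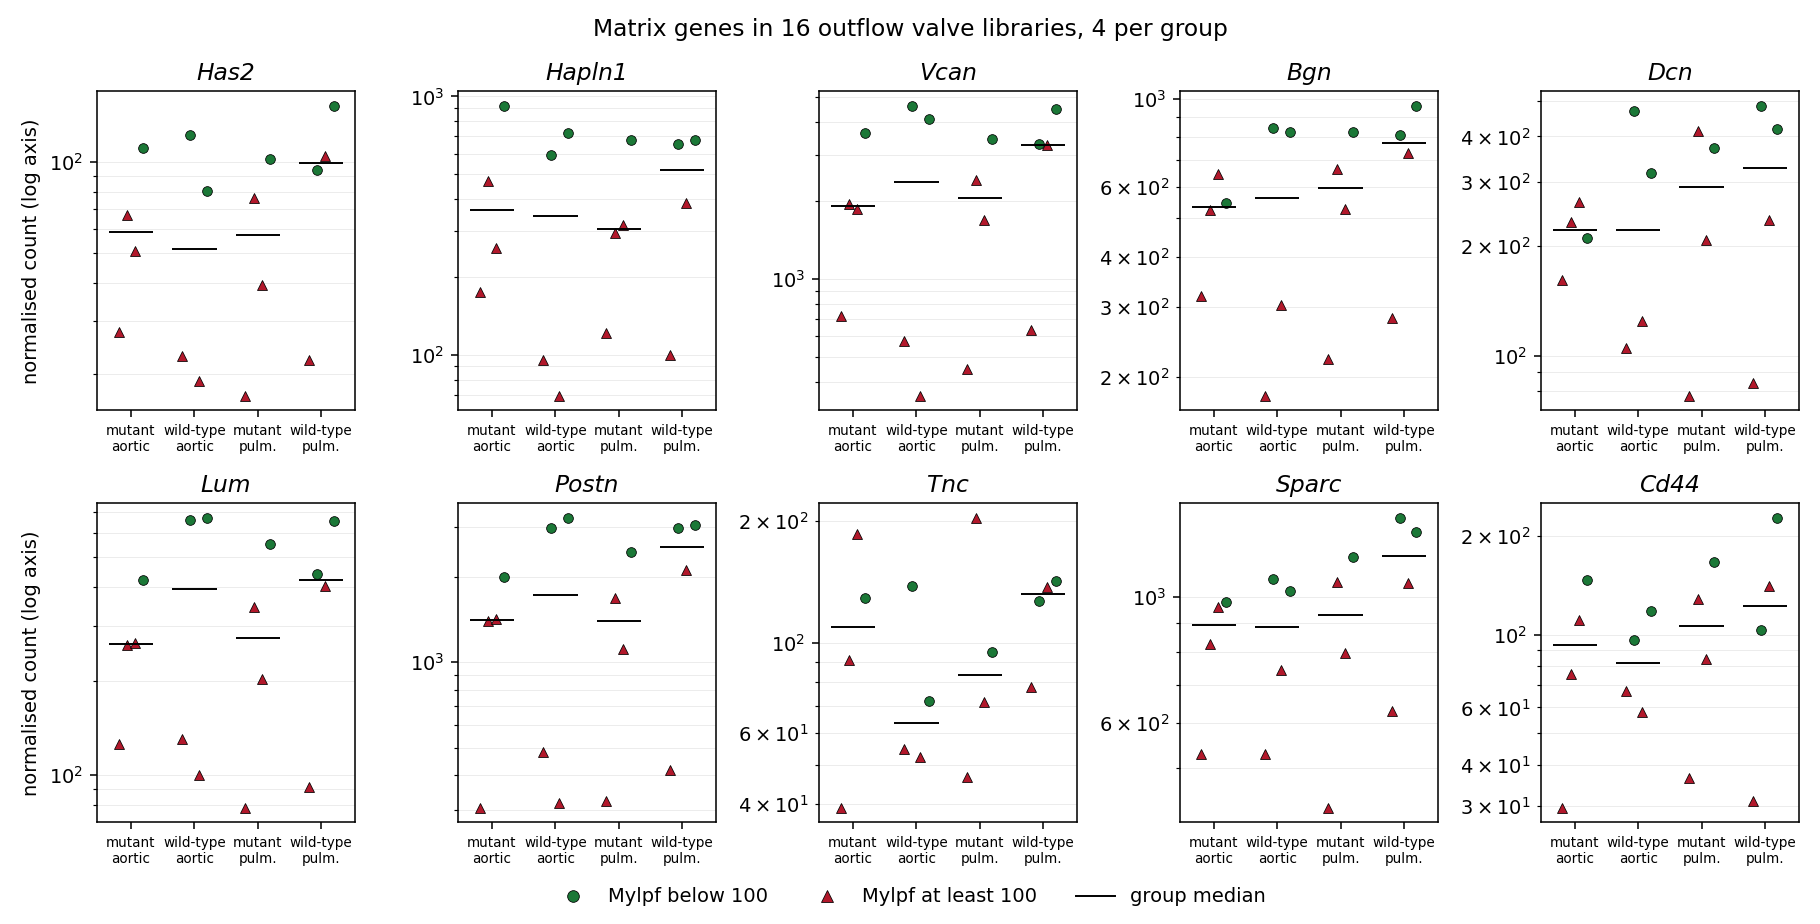
Normalised counts (log axis) of each of the 10 genes in 4 libraries per group, with the group median as a line. Green circles are the 6 libraries with Mylpf below 100 and red triangles the other 10. Within each group the libraries spread widely and the genotypes overlap, with the green circles at or near the top for most genes.

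The hyaluronan synthase gene Has2 was at 27.6, 66.7, 50.8 and 111 units in mutant aortic libraries 1 to 4, against 22.9, 123, 19.0 and 80.5 units in wild-type aortic libraries. Its pulmonary values were 17.0, 76.2, 39.2 and 103 units in mutant libraries, against 22.2, 94.2, 104 and 153 units in wild-type libraries. The genotypes overlapped in both valves, and the spread within a group was larger than the distance between groups. The mean was 64.1 ± 35.2 units in mutant and 61.4 ± 49.8 units in wild-type aortic valves, and 58.8 ± 38.1 units in mutant and 93.5 ± 54.1 units in wild-type pulmonary valves (SD, n = 4 each). The log2 difference was 0.30 (interval -1.15 to 1.76) in the aortic and -0.66 (-2.11 to 0.79) in the pulmonary valve. In the pulmonary valve the mutant was below its litter mate in all 4 pairs.

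Cd44, the main hyaluronan receptor, was at 29.7, 75.7, 110.5 and 146 units in mutant aortic libraries, against 67.2, 96.7, 58.1 and 118 units in wild-type aortic libraries. In pulmonary libraries it was at 36.6, 128, 84.1 and 166 units in mutants, against 31.2, 103, 141 and 227 units in wild type. Groups overlapped fully, and the pulmonary pairs were split, with the mutant lower in 2 of 4. Its log2 difference was -0.07 (-1.29 to 1.15) in the aortic and -0.16 (-1.38 to 1.06) in the pulmonary valve. Both intervals reach beyond a log2 difference of 1 in either direction.

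Hapln1, the link protein that fastens versican to hyaluronan, was at 175, 469, 258 and 918 units in mutant aortic libraries, against 95.7, 595, 69.3 and 724 units in wild-type aortic libraries. Its pulmonary values were 121, 296, 317 and 679 units in mutant libraries, against 99.4, 653, 387 and 681 units in wild-type libraries. The mutant was higher in 3 of 4 aortic pairs and lower in 3 of 4 pulmonary pairs, and the genotypes overlapped in both valves. Means were 455 ± 333 units in mutant and 371 ± 338 units in wild-type aortic valves, and 353 ± 234 units in mutant and 455 ± 271 units in wild-type pulmonary valves (SD, n = 4 each). Hapln1 had the largest aortic log2 difference of the 10 genes, 0.69 (-0.98 to 2.35), and -0.29 (-1.96 to 1.38) in the pulmonary valve. The aortic value was 0.11 without wild-type aortic library 3 and 1.23 without wild-type aortic library 4.

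Vcan, the large chondroitin sulphate proteoglycan of the cushion matrix, was at 719, 1942, 1864 and 3635 units in mutant aortic libraries, against 576, 4628, 355 and 4139 units in wild-type aortic libraries. It was at 449, 2399, 1678 and 3464 units in mutant pulmonary libraries, against 632, 3290, 3281 and 4491 units in wild-type pulmonary libraries. The wild-type aortic group held both the lowest and the highest library of all 16, a 13-fold span. Means were 2040 ± 1201 units in mutant and 2424 ± 2273 units in wild-type aortic valves, and 1998 ± 1267 units in mutant and 2924 ± 1630 units in wild-type pulmonary valves (SD, n = 4 each). For Vcan the log2 difference was 0.32 (-1.48 to 2.12) in the aortic and -0.57 (-2.37 to 1.23) in the pulmonary valve. In the aortic valve the mean over the values was lower in the mutant, while the mean on the log scale was higher.

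Within a library the Hapln1 to Vcan ratio moved far less than either gene, by 2.29-fold over the 16 libraries. It was 0.243, 0.242, 0.138 and 0.253 in mutant aortic libraries, against 0.166, 0.129, 0.195 and 0.175 in wild-type aortic libraries. It was 0.269, 0.123, 0.189 and 0.196 in mutant pulmonary libraries, against 0.157, 0.198, 0.118 and 0.152 in wild-type pulmonary libraries. In the aortic valve 3 of 4 mutant ratios were above all 4 wild-type ratios, in the pulmonary valve 1 of 4, and the groups overlapped in both. The mean ratio was 0.219 ± 0.054 in mutant and 0.166 ± 0.028 in wild-type aortic valves, and 0.194 ± 0.060 in mutant and 0.156 ± 0.033 in wild-type pulmonary valves (SD, n = 4 each). The ratio was chosen after the values were seen and has no test.

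Among the small leucine-rich proteoglycans, Bgn was at 320, 526, 649 and 545 units in mutant aortic libraries, against 179, 845, 304 and 825 units in wild-type aortic libraries. Its pulmonary values were 222, 666, 528 and 826 units in mutant libraries, against 280.4, 812, 732 and 959 units in wild-type libraries. The aortic mutants lay inside the range of the aortic wild types, and the pulmonary mutant was below its litter mate in all 4 pairs. The log2 difference was 0.16 (-0.92 to 1.24) in the aortic and -0.33 (-1.40 to 0.75) in the pulmonary valve. Dcn was at 162, 233, 264 and 210.1 units in mutant aortic libraries, against 105, 469, 125 and 318 units in wild-type aortic libraries. It was at 77.6, 413, 207 and 372 units in mutant pulmonary libraries, against 84.1, 485, 235 and 419 units in wild-type pulmonary libraries. Mutant aortic Dcn varied little, with a mean of 217 ± 43.2 units, against 254 ± 173 units in wild type (SD, n = 4 each), and the genotypes overlapped in both valves. Its log2 difference was 0.02 (-1.21 to 1.26) in the aortic and -0.17 (-1.41 to 1.06) in the pulmonary valve.

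Lum, whose product spaces collagen fibrils, was at 126, 262, 264 and 422 units in mutant aortic libraries, against 130.0, 661, 99.6 and 669 units in wild-type aortic libraries. It was at 78.3, 347, 203 and 551 units in mutant pulmonary libraries, against 91.4, 441, 403 and 653 units in wild-type pulmonary libraries. The mutant was lower in 3 of 4 aortic and 4 of 4 pulmonary pairs, with overlapping groups in each valve. For Lum the log2 difference was -0.16 (-1.68 to 1.36) in the aortic and -0.45 (-1.97 to 1.07) in the pulmonary valve. The ratio of Lum to its neighbour Dcn spanned 2.70-fold, with 0.779, 1.12, 1.00 and 2.01 in mutant aortic libraries and 1.24, 1.41, 0.799 and 2.11 in wild-type aortic libraries. In pulmonary libraries it was 1.01, 0.840, 0.980 and 1.48 in mutants and 1.09, 0.909, 1.71 and 1.56 in wild type. Library 4 of both aortic groups had the highest ratios, and the genotypes overlapped.

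Among the matricellular genes, Postn was at 307, 1401, 1418 and 1998 units in mutant aortic libraries, against 482, 2984, 318 and 3234 units in wild-type aortic libraries. It was at 325, 1692, 1115 and 2459 units in mutant pulmonary libraries, against 417, 2992, 2122 and 3062 units in wild-type pulmonary libraries. The mutant was lower in 3 of 4 aortic and 4 of 4 pulmonary pairs, and every group had 1 or 2 libraries below 500 units. Means were 1281 ± 706 units in mutant and 1755 ± 1569 units in wild-type aortic valves, and 1398 ± 903 units in mutant and 2148 ± 1231 units in wild-type pulmonary valves (SD, n = 4 each). The log2 difference was -0.07 (-1.88 to 1.73) in the aortic and -0.61 (-2.41 to 1.2) in the pulmonary valve.

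Tnc, which encodes an adhesion-modulating glycoprotein, was at 39.2, 90.7, 186 and 129 units in mutant aortic libraries, against 54.9, 138, 52.5 and 72.1 units in wild-type aortic libraries. It was at 46.8, 204, 71.4 and 95.2 units in mutant pulmonary libraries, against 77.8, 127, 138 and 143 units in wild-type pulmonary libraries. Its highest libraries, mutant pulmonary 2 and mutant aortic 3, were not the highest for the other matrix genes, and the genotypes overlapped. For Tnc the log2 difference was 0.39 (-0.60 to 1.38) in the aortic and -0.39 (-1.38 to 0.60) in the pulmonary valve.

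Sparc, whose product binds collagen and calcium, was at 528, 824, 958 and 979 units in mutant aortic libraries, against 528, 1076, 742 and 1023 units in wild-type aortic libraries. It was at 425, 1061, 796 and 1176 units in mutant pulmonary libraries, against 629, 1376, 1057 and 1303 units in wild-type pulmonary libraries. It varied least of the 10 genes, by 3.24-fold over all libraries, and its intervals were the narrowest. The log2 difference was -0.02 (-0.74 to 0.70) in the aortic and -0.37 (-1.10 to 0.35) in the pulmonary valve, where the mutant was lower in all 4 pairs.

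Set side by side, the aortic differences of the 10 genes lay on both sides of 0, with 6 above and 4 below and a median of 0.09, beside a median of 0.02 over all tested genes (Dcn, at 0.02, was at -0.0043 with median scaling). All 10 pulmonary differences were below 0, with a median of -0.38, beside 0.0087 over all tested genes. No member had all 4 mutant libraries above or below all 4 wild-type libraries in either valve. Over all tested genes 0.759% were higher and 0.824% lower without overlap in mutant aortic libraries, and 0.938% higher and 1.05% lower in mutant pulmonary libraries. By litter pairs, no member was higher or lower in the mutant in all 4 aortic pairs, beside 5.99% and 5.03% of all genes. In the pulmonary valve 7 of 10 members, Has2, Vcan, Bgn, Dcn, Lum, Postn and Sparc, were lower in the mutant in all 4 pairs, beside 6.9% of all genes, and none was higher in all 4, beside 6.67%. Hapln1 and Tnc were lower in 3 of 4 and Cd44 in 2 of 4 of these pairs. These genes shared their libraries, and Tbx20 had the same pulmonary order, at 98.0, 976, 549 and 1152 units in mutant and 119, 1467, 947 and 1411 units in wild-type libraries. The list of 10 valve mesenchyme markers that holds Tbx20 had 6 above and 4 below 0 in this comparison, with a median of 0.08. In the same comparison 13 of 14 skeletal muscle markers were above 0 with a median log2 difference of 0.83 and sums of 11.1 to 1068 units in mutant and 6.28 to 1463 units in wild-type pulmonary libraries. Neuronal and Schwann cell markers were above 0 in 9 of 9 (median 0.65), cardiomyocyte markers in 9 of 13 (median 0.42), and erythroid markers were below 0 in 8 of 9 (median -1.29), and none of these markers passed the test. With the Tbx20 level as a covariate, a term chosen after the data were seen, 3 pulmonary differences were above 0 and 7 below, with a median of -0.17. With the Mylpf class as a term 3 were above 0 and 7 below, with a median of -0.07, and the medians were -0.13 among libraries with Mylpf of at least 100 alone and -0.17 among those below 100 alone. Without the 5 libraries with Tbx20 below 150, a choice also made after the data were seen, all 10 pulmonary differences were below 0, with a median of -0.40. That fit kept pulmonary libraries 2, 3 and 4 of each genotype. Mylpf was below 100 in mutant library 4 and in wild-type libraries 2 and 4, so the Mylpf classes were unequal between genotypes. No member passed in any of these fits, and the smallest adjusted p in the last was 0.862 with limma.

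With litter as a block the differences of the 10 genes were the same and their standard errors 0.25 to 0.52, and again 0 of them passed. The smallest limma p-values were 0.0857 for Hapln1 in the aortic valve (adjusted p = 1.00) and 0.107 for Has2 in the pulmonary valve (adjusted p = 0.891). Whether the genotype difference itself differed between valves was tested as an interaction. The pulmonary minus aortic genotype difference was below 0 for all 10 genes, from -0.97 for Hapln1 to -0.09 for Cd44. Its median was -0.51, beside -0.018 over all tested genes. None passed, beside 0% of all genes, and the smallest limma p was 0.255 for Tnc (adjusted p = 1.00). The signs changed with the libraries kept. With the 5 libraries of Tbx20 below 150 left out, 5 of these differences were above 0 and 5 below, as they were with Mylpf below 100 alone.

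**Figure D2:**
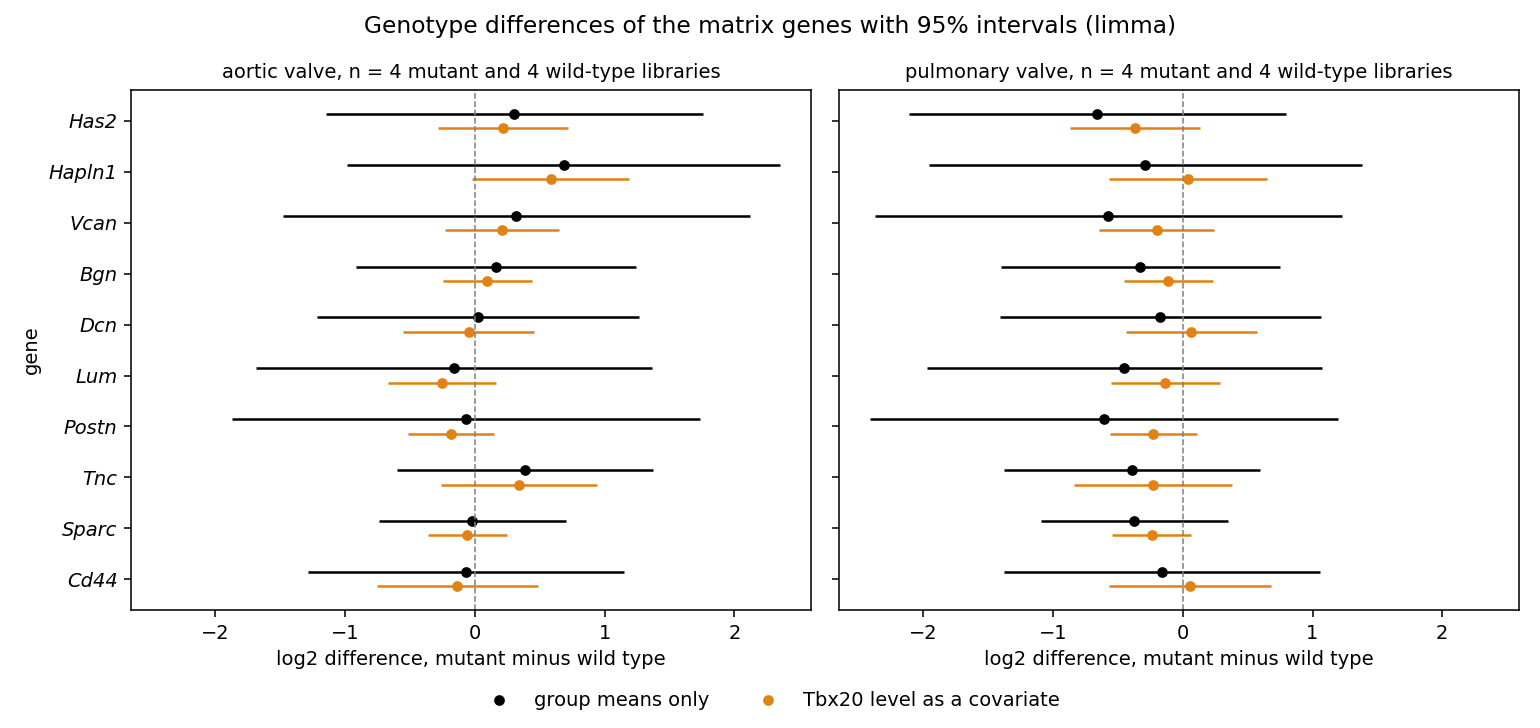
Log2 difference (x axis, mutant minus wild type) of each of the 10 genes in the aortic (left) and pulmonary (right) valve with its 95% limma interval. Black points are from the fit with group means only and orange points from the fit with the Tbx20 level as a covariate, and all intervals include 0 in both panels.

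Between valves, the pulmonary minus aortic log2 difference over both genotypes was above 0 for all 10 genes, from 0.08 for Lum to 0.34 for Postn, with a median of 0.25 beside -0.011 over all genes. None passed with limma, beside 0% of all genes, and the smallest p was 0.391 for Tnc (adjusted p = 1.00). Library batch changed with the valve. Same-numbered libraries of the 2 valves came from different litters, except for number 2, which was litter JND7 in both valves. Whether any aortic and pulmonary libraries of a shared litter came from the same embryo is not stated by the labels at hand. The valve values are therefore a description of these libraries.

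Levels per kilobase of annotated exon sequence put Sparc first, with a median over the 16 libraries of 256 units per kb (range 112 to 363), followed by Postn with 179 (35.2 to 372), Vcan with 150.1 (24.5 to 320) and Lum with 125 (32.0 to 273). Bgn had a median of 97.9 units per kb (29.4 to 157), Hapln1 59.6 (11.7 to 156) and Dcn 40.1 (13.3 to 83.1). Has2 with 16.9 (4.0 to 36.2), Cd44 with 14.7 (4.38 to 33.5) and Tnc with 12.0 units per kb (5.05 to 26.2) were the lowest. Each gene's range overlapped that of its neighbours in this order, so the order of neighbours is not fixed by these libraries. The enzyme Has2 and the receptor Cd44 thus had lower medians per kb than the matrix proteins Vcan and Postn. The lengths count every GENCODE exon of a gene, whichever isoforms were expressed, and the authors' own annotation may differ.

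The libraries with little Mylpf had more of each of the 10 genes in the median. The classes come from measured values and mix genotypes and valves, so they are described with no test. They also followed litter. All libraries of litters JGJ68 and JGH66 had Mylpf below 100, and all of litters JND8 and JNC10 had at least 100. In litter JND7 the wild-type libraries were below 100 and the mutant libraries were not. Outside JND7, litter and Mylpf class therefore cannot be told apart. Vcan was at 3290 to 4628 units, with a median of 3887, in the 6 libraries with Mylpf below 100, against 355 to 3281 units, with a median of 1198, in the other 10. Hapln1 was at 595 to 918 units, with a median of 680, where Mylpf was low, against 69.3 to 469 units, with a median of 216. Lum was at 422 to 669 units, with a median of 602, against 78.3 to 403 units, with a median of 167. For these 3 genes the classes did not overlap, which was so for 2.6% of all tested genes, and no member was lower without overlap, beside 3.68% of all genes. The median was higher in the low-Mylpf class for 10 of 10 members, beside 50.7% of all genes. Postn came close, at 1998 to 3234 units against 307 to 2122 units, with 1 of the 10 libraries above the lowest of the 6. Has2, at 80.5 to 153 units against 17.0 to 104 units, also had 1 such library. The ratio of class medians was highest for Postn (3.74), Lum (3.61), Vcan (3.24), Has2 (3.20) and Hapln1 (3.14), and lower for Dcn (2.14), Bgn (1.95), Cd44 (1.85), Tnc (1.71) and Sparc (1.46). In Tnc, at 72.1 to 143 units where Mylpf was low, 5 of the 10 other libraries exceeded the lowest of the 6, and both libraries with the highest Tnc were among those 10.

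Mylpf did not divide the libraries into uniform classes, since 5 of the 10 libraries with Mylpf of at least 100 were also the 5 with low Tbx20. All 5 came from litters JND8 and JNC10, which also gave libraries with Tbx20 of at least 150. Vcan was at 1678 to 3281 units in the 5 libraries with Mylpf of at least 100 and Tbx20 of at least 150, and at 355 to 719 units in the 5 with Tbx20 below 150. Hapln1 was at 258 to 469 units and at 69.3 to 175 units in the same libraries. Postn was at 1115 to 2122 units and at 307 to 482 units. For 9 of the 10 genes these ranges did not overlap, beside 5.87% of all tested genes, with Tnc, at 71.4 to 204 units and 39.2 to 77.8 units, as the exception. The gap was narrow for Sparc, at 796 to 1061 units and 425 to 742 units, and for Cd44, at 75.7 to 141 units and 29.7 to 67.2 units. All 10 genes varied at least 3-fold between libraries, as did 64.5% of all tested genes on values with 1 added. The SD of log2(value + 1) over the 16 libraries was 1.29 for Vcan and for Postn, 1.2 for Hapln1, 1.08 for Lum, 1.05 for Has2, 0.86 for Dcn, 0.85 for Cd44, 0.76 for Bgn, 0.72 for Tnc and 0.50 for Sparc.

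**Figure D3:**
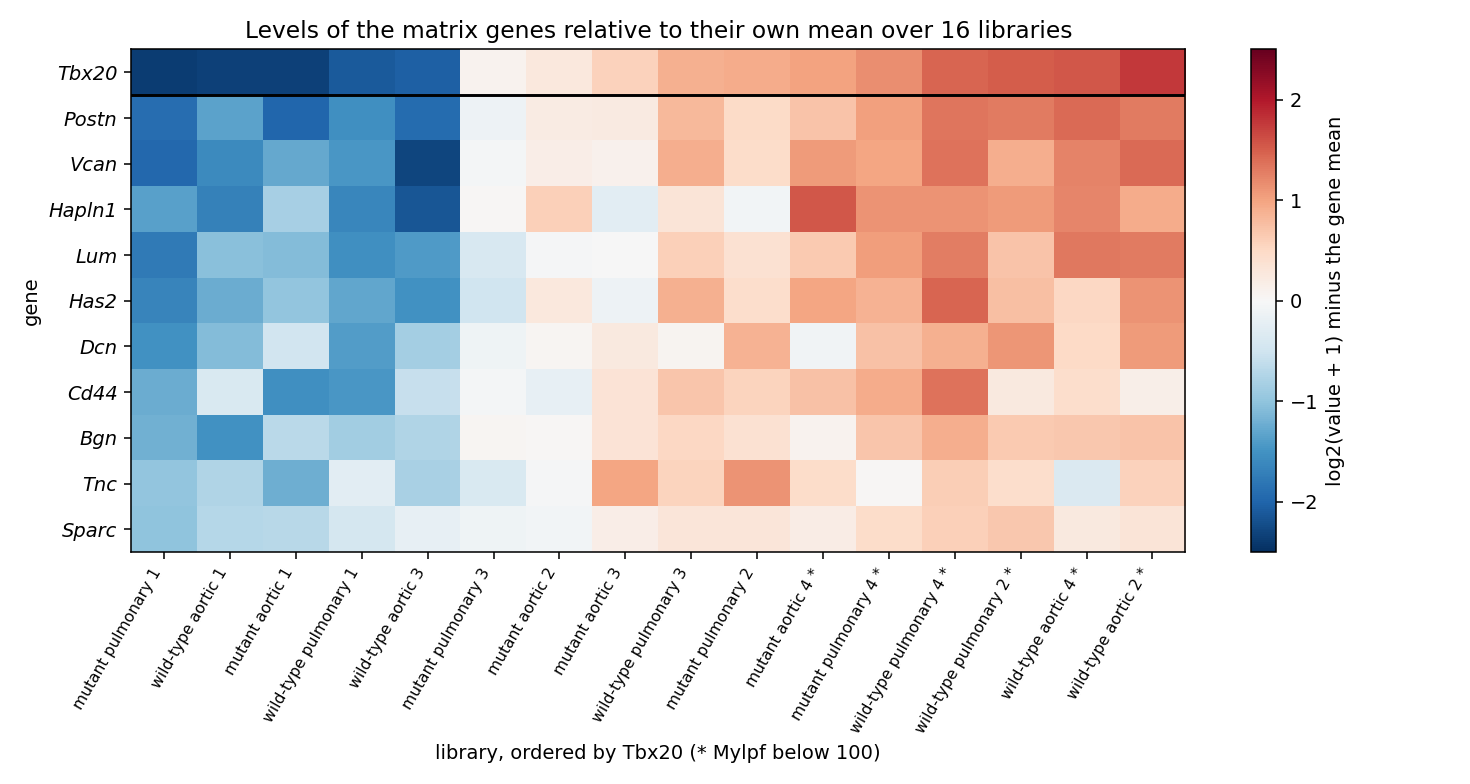
Levels of Tbx20 and the 10 matrix genes (rows) in 16 libraries (columns, ordered by Tbx20, an asterisk marks Mylpf below 100), as log2(value + 1) minus the gene's mean. The 5 libraries with Tbx20 between 98.0 and 123 units, on the left, are blue for all 10 genes, and the 6 with Mylpf below 100, on the right, are red for most.

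With the Tbx20 level as a covariate, the standard errors of the 10 genotype differences were 0.15 to 0.30, against 0.34 to 0.85 without it. In the aortic valve 5 differences were then above 0 and 5 below, with a median of 0.02. The smallest limma p-values were 0.057 for Hapln1 in the aortic valve (adjusted p = 1.00) and 0.117 for Sparc in the pulmonary valve (adjusted p = 0.909). With the Mylpf class as a term all 10 aortic differences were above 0, with a median of 0.42, and that of Hapln1 was 1.2 (adjusted p = 0.842 with limma). Among the libraries with Mylpf of at least 100 alone the Hapln1 aortic difference was 1.75 (adjusted p = 0.833 with limma). Without the 5 libraries of low Tbx20, 9 of the 10 aortic differences were below 0 with a median of -0.50, and Lum had -1.11 (adjusted p = 0.940 with limma). Before adjustment, 5 of the 10 had a limma p under 0.05 there, beside 581 of all 13963 tested genes. This count was 1 with the Mylpf class as a term and 2 with Mylpf of at least 100 alone, where all 10 differences were above 0. The fit without the 5 libraries of low Tbx20 kept wild-type aortic libraries 2 and 4, both with Mylpf below 100. Its mutant aortic libraries were 2, 3 and 4, of which only library 4 had Mylpf below 100. Genotype and Mylpf class therefore can hardly be told apart in it. The direction of the aortic differences thus changed with the libraries kept, and 0 of the 10 genes passed in any of these fits.

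**Figure D4:**
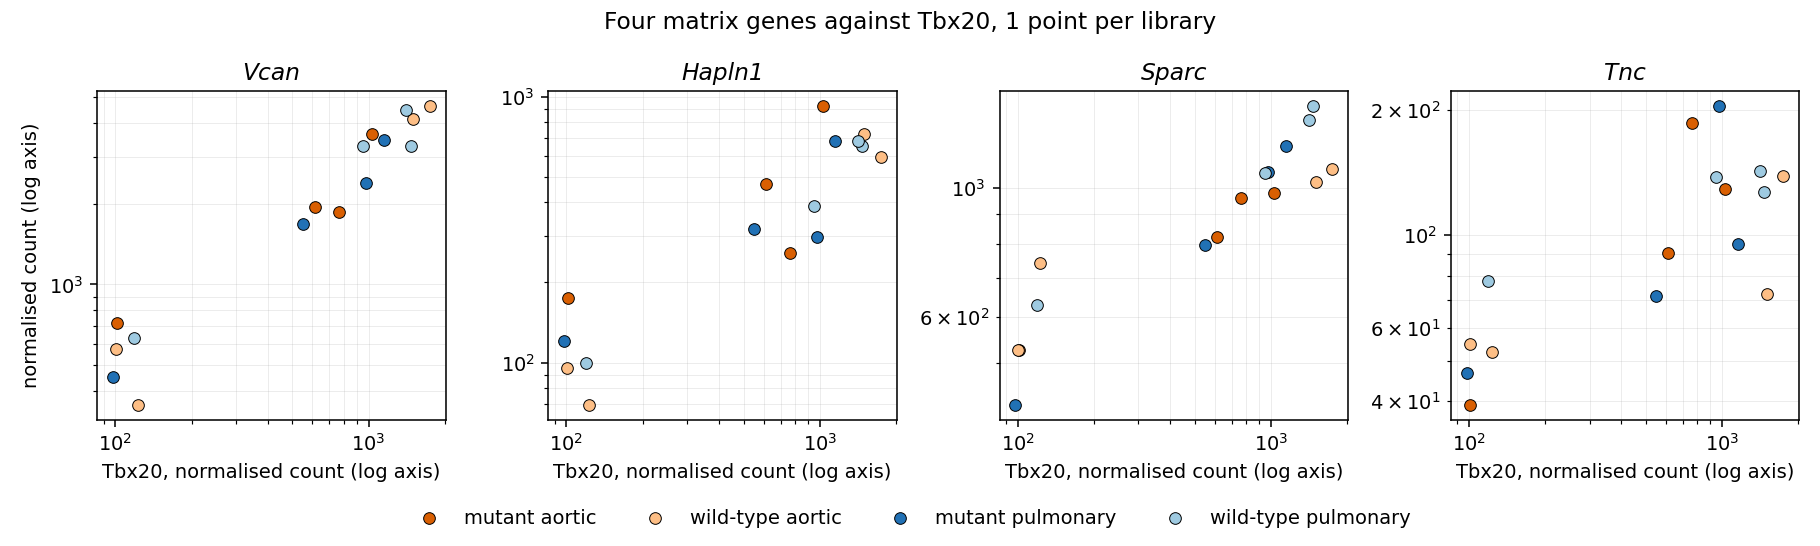
Normalised counts of Vcan, Hapln1, Sparc and Tnc (y axes, log scale) against Tbx20 (x axes, log scale), 1 point per library, coloured by group. The 5 libraries with Tbx20 below 150 sit at the lower left, with Vcan at 355 to 719 units, and mutant and wild-type points are mixed along the range, with Tnc the most scattered.

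Across the 16 libraries the 10 genes were compared by the root-mean-square difference of their centred log2(value + 1) profiles. The closest pair was Vcan and Postn, with 0.26, followed by Has2 and Lum with 0.27, Bgn and Dcn with 0.30, and Vcan and Lum with 0.32. The neighbours Hapln1 and Vcan differed by 0.37. Among 7063 genes with a mean of at least 20 units, the genes outside the 10 that were nearest to Vcan were Agrn (0.28), which encodes the proteoglycan agrin, and Loxl2 (0.30), a collagen-crosslinking enzyme. Postn was nearest to Col18a1 (0.27), a basement membrane collagen, and Fbn1 (0.27), the microfibril protein fibrillin. Hapln1 was nearest to Ramp2 (0.29) and Eng (0.30), both known from endothelial cells. Bgn was nearest to Mfap4 (0.24) and Calu (0.24), Dcn to Pdia6 (0.26) and Pdia4 (0.28), and Lum to Tbc1d4 (0.26) and Loxl2 (0.28). Sparc was nearest to Csrp1 (0.18) and Ssr2 (0.19), Has2 to Plxna3 (0.27) and Npc1 (0.30), and Cd44 to 2010111I01Rik (0.32) and Fam198b (0.33). Tnc stood furthest from any other gene, with Mgp at 0.38 and Ralgapa2 at 0.40, beside its own root-mean-square spread of 0.69. The points of each profile share libraries and tissue makeup, and nearness here is a description.

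The Tnc to Postn ratio, the widest of 6 ratios computed after the values were seen, spanned 8.36-fold. It was 0.022 to 0.065 in the libraries with Mylpf below 100 and 0.064 to 0.187 in the others. The Bgn to Vcan ratio spanned 5.70-fold, at 0.150 to 0.247 and 0.223 to 0.856 in the same classes. Both ratios had their highest values where Mylpf was at least 100, and the ranges of the classes touched or overlapped. The part of other cell types in these ratios was not tested.

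Other genes of the matrix pathway, in 5 lists of known members, also gave 0 calls with limma in the aortic valve (0% of all genes) and in the pulmonary valve (0%). Of 25 listed genes for hyaluronan synthesis, breakdown and binding 15 were tested, with 7 above and 8 below 0 in both valves and medians of -0.03 aortic and -0.09 pulmonary. The lymphatic and macrophage hyaluronan receptor gene Lyve1 averaged 11.8 ± 6.19 units in mutant and 2.86 ± 2.11 units in wild-type pulmonary valves (SD, n = 4 each), a log2 difference of 1.72 (adjusted p = 1.00 with limma). Its aortic means lay the other way, at 7.76 ± 3.01 units in mutant and 17.5 ± 22.7 units in wild type. The hyaluronidase gene Hyal2 averaged 56.0 ± 28.7 units in mutant and 43.2 ± 28.9 units in wild-type aortic valves, a difference of 0.49, with 0.69 for Hyal1 and -0.49 for Habp4. The pulmonary differences of Has1, another synthase, and Hmmr were -0.81 and -0.37. None of these passed.

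Of 33 other proteoglycan core protein genes 26 were tested, with 18 above and 8 below 0 in the aortic valve (median 0.27) and 14 above and 12 below 0 in the pulmonary valve (median 0.08). The glypican Gpc3 averaged 142 ± 62.5 units in mutant and 91.0 ± 35.1 units in wild-type aortic valves, a difference of 0.61, while Gpc1 averaged 23.8 ± 9.89 units in mutant and 36.2 ± 8.52 units in wild type, a difference of -0.64. Another glypican, Gpc6, had 0.41. In the pulmonary valve the collagen-anchoring Prelp averaged 31.0 ± 12.3 units in mutant and 53.5 ± 11.1 units in wild type, a difference of -0.83 (adjusted p = 1.00 with limma). The syndecan gene Sdc1 averaged 34.6 ± 8.04 units in mutant and 56.3 ± 16.1 units in wild-type pulmonary valves, a difference of -0.67. Spock3 had 1.36, with a mean of 2.53 ± 2.49 units in mutant and 0.116 ± 0.232 units in wild-type pulmonary valves (SD, n = 4 each), levels close to 0 in both groups.

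Of 22 genes for chondroitin and dermatan sulphate synthesis, the chains carried by versican, biglycan and decorin, 19 were tested. In the aortic valve 12 were above and 7 below 0 (median 0.16), and in the pulmonary valve 5 above and 14 below (median -0.20). The chain-starting Csgalnact1 averaged 26.0 ± 8.96 units in mutant and 16.7 ± 4.13 units in wild-type aortic valves, a difference of 0.58, with 0.67 for Ust and -0.78 for Xylt2. In the pulmonary valve the linker enzyme gene B3galt6 averaged 5.54 ± 1.51 units in mutant and 2.78 ± 0.991 units in wild type, a difference of 0.81 (adjusted p = 1.00 with limma). The sulphotransferase gene Chst15 had 0.68 and the epimerase-like gene Dsel -0.67 there.

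Of 26 other matricellular genes 21 were tested, with 15 above and 6 below 0 in the aortic valve (median 0.31) and 9 above and 12 below in the pulmonary valve (median -0.13). Tgfbi, a relative of periostin, averaged 145 ± 54.0 units in mutant and 77.1 ± 71.2 units in wild-type aortic valves, a difference of 1.27 (adjusted p = 1.00 with limma). Its pulmonary means were 147 ± 84.4 units in mutant and 161 ± 104 units in wild type (SD, n = 4 each). Smoc1 had an aortic difference of 1.03, and Smoc2 and Comp had pulmonary differences of 1.34 and 0.80. Smoc1 was at 0.33 without mutant aortic library 2, Smoc2 at 0.69 without wild-type pulmonary library 2 or 4 and 2.20 without mutant pulmonary library 4, and Comp at 1.41 without wild-type pulmonary library 1. The thrombospondin gene Thbs2 was lower in mean in both valves, with 61.3 ± 25.3 units in mutant and 79.5 ± 25.2 units in wild-type aortic valves (difference -0.41), and 63.9 ± 14.7 units in mutant and 91.8 ± 23.3 units in wild-type pulmonary valves (difference -0.51).

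All 6 genes of the versican-cleaving ADAMTS enzymes were tested, with 4 above and 2 below 0 in the aortic valve (median 0.29) and 1 above and 5 below in the pulmonary valve (median -0.30). Adamts5 averaged 143 ± 70.2 units in mutant and 78.8 ± 68.5 units in wild-type aortic valves, a difference of 1.12 (adjusted p = 1.00 with limma). Its pulmonary means were 93.9 ± 48.8 units in mutant and 118 ± 69.9 units in wild type. Adamts15 averaged 14.3 ± 5.58 units in mutant and 23.1 ± 4.06 units in wild-type pulmonary valves (SD, n = 4 each), a difference of -0.71, and its aortic difference was -0.37. Adamts9 had 0.44 in the aortic valve, and Adamts20 and Adamts1 had -0.48 and -0.40 in the pulmonary valve. None of these 6 genes passed the test.

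Set against Mylpf, the lists went with the 10 genes to different degrees. The summed level of the 10 genes was 9093 to 12090 units in the 6 libraries with Mylpf below 100 and 1797 to 8601 units in the other 10. The ADAMTS genes summed to 323 to 500.4 units and 110 to 366.5 units, and all 6 had the higher median where Mylpf was low. So did 16 of 19 chondroitin and dermatan sulphate genes and 12 of 15 hyaluronan genes, beside 50.7% of all tested genes. The counts of 14 of 26 proteoglycan core genes and 10 of 21 other matricellular genes were both near that share. Cardiomyocyte markers, 13 of 14 of them in the table, summed to 136 to 1300 units where Mylpf was low and 432 to 6264 units elsewhere, so heart muscle transcript was present in all 16 libraries. Neuronal and Schwann cell markers summed to 47.3 to 103 units and 49.2 to 829 units in the same classes. The part of these cell types in the levels of the matrix genes was not tested.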

How the data were processed

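RNA from laser-microdissected valves was isolated with PicoPure columns, amplified with an Ovation kit and made into libraries with Illumina reagents, per the labels' protocols. The submitters' processing notes name build GRCm38 and the tools RSEM 1.2.3, cutadapt 1.6, CASAVA 1.8.2 and FastQC. The authors deposited a normalised signal per gene and library, with no statement at hand of how it was normalised or filtered. All deposited values (100%) came back as whole reads at a tolerance of 0.05 read, and the scaling differed by at most 3.7e-07% from TMM factors recomputed from those reads. RSEM gives estimated counts, so the whole reads may be rounded ones. Reads carry no molecular identifiers that a label mentions, so they need not be independent molecules. Ensembl identifiers were matched to symbols for 13780 of 13964 genes, and exon lengths come from GENCODE.

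Groups were compared on log2(value + 1) with limma 3.58.1 (R 4.3.3), with a mean per group over all 16 libraries and a mean-variance trend. Tests were two-sided, p-values were Benjamini-Hochberg adjusted, and the threshold was 0.05. The 13963 genes that reached 1 unit in 4 or more libraries were tested, all 10 members among them. The pseudocount makes differences of low genes too small. Alternatives were edgeR 4.0.16 and DESeq2 1.42.0 on the recovered reads, other pseudocounts, filters and scalings, array weights, a litter block, Mylpf classes and leaving out each library. The Tbx20 fits were added after the data were seen. Labels give the litter of each library, and same-numbered mutant and wild-type libraries of a valve share one, so the numbers pair them. Their deviations from the group means correlated at 0.48, 0.011, 0.20 and 0.64 for the aortic pairs 1 to 4, and at 0.49, -0.035, 0.066 and 0.45 for the pulmonary pairs. Each p-value measures the spread between these libraries.

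The members and the gene lists were chosen with earlier results of these data known. Named beside the 10 members were Jag1, Mylpf and Tbx20, the up to 3 genes of each list with the smallest p in the aortic and pulmonary comparisons, and the 2 nearest profiles per member. List genes are not named for the other comparisons. The fits were tested on simulated data.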

Additional observations from a re-analysis of the deposited data

How the results depend on the processing

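None of the 10 members passed the threshold in any comparison under any of the alternatives run, and the smallest adjusted p among them was 0.704. Over all genes, the limma count of 0 genes changed as follows. For the mean of both valves the litter as a replicate block gave 1 gene, DESeq2 5, the Mylpf class as a term 2, libraries with Mylpf of at least 100 alone 3, those below 100 alone 3 and the Tbx20 covariate 2. Leaving out 1 library gave 0 to 3 genes there, with 3 without wild-type aortic library 4 and 2 without wild-type pulmonary library 2. The aortic count was 3 with Mylpf of at least 100 alone, 3 below 100 alone, and 0 to 2 on leaving out 1 library, with 2 without wild-type aortic library 4. The pulmonary count was 2 with DESeq2, 2 with Mylpf of at least 100 alone and 1 below 100 alone. The valve count was 1 with the Mylpf class as a term. The pairing by litter, as a replicate block, changed no other call, and turned no member's direction. The class with Mylpf below 100 held 1 mutant and 2 wild-type libraries per valve, so its calls rest on a single mutant library that is assumed to vary like the others. The class of at least 100 held 3 mutant and 2 wild-type libraries per valve.

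Uncalled differences changed sign as follows, in log2 units, and the cause was not tested. With edgeR the aortic differences were Vcan -0.25, Bgn -0.078, Dcn -0.23 and Cd44 0.090, the interaction was 0.033 for Dcn and 0.11 for Lum, and the valve difference of Hapln1 was -0.036. With DESeq2 they were Vcan -0.24, Bgn -0.073, Dcn -0.22 and Cd44 0.082, with 0.040 for Dcn and 0.11 for Lum, and -0.025 for Hapln1. Median scaling gave aortic Dcn -0.0043. Array weights gave aortic Has2 -0.24, Hapln1 -0.087, Vcan -0.36, Bgn -0.10 and Dcn -0.28. The Mylpf term gave aortic Lum 0.27, Postn 0.41, Sparc 0.14 and Cd44 0.20, and pulmonary Hapln1 0.23, Dcn 0.12, Cd44 0.10 and Adamts1 0.031. Only libraries with Mylpf of at least 100 gave aortic Lum 0.85, Postn 1.11, Sparc 0.26, Cd44 0.012 and Adamts15 0.25, pulmonary Hapln1 0.19, Dcn 0.42, Cd44 0.14 and Adamts1 0.23, and an interaction of 0.13 for Cd44. Only those below 100 gave aortic Vcan -0.27, Bgn -0.61, Dcn -0.87, Cd44 0.45 and Smoc1 -0.021, and pulmonary Hapln1 0.027, Lum 0.038, Cd44 0.12 and Hmmr 0.083. They also gave interactions of 0.12 for Vcan, 0.52 for Bgn, 0.60 for Dcn, 0.69 for Lum and 0.34 for Postn, and valve differences of -0.21 for Hapln1, -0.13 for Vcan and -0.0042 for Tnc. The Tbx20 covariate gave aortic Dcn -0.048, pulmonary Hapln1 0.043, Dcn 0.066 and Cd44 0.058, interactions of 0.11 for Dcn, 0.12 for Lum and 0.20 for Cd44, and valve differences of -0.11 for Hapln1, -0.0031 for Vcan, -0.031 for Dcn and -0.18 for Lum. Without the 5 libraries with Tbx20 below 150, aortic Has2 was -0.46, Hapln1 -0.45, Vcan -0.89, Bgn -0.55, Dcn -0.72 and Hyal2 -0.10, the interactions were 0.29 for Vcan, 0.22 for Bgn, 0.52 for Dcn, 0.58 for Lum and 0.28 for Postn, and the valve differences -0.25 for Hapln1, -0.12 for Vcan, -0.15 for Lum and -0.066 for Postn.

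Leaving out 1 library at a time, the aortic differences ranged from -0.11 to 0.77 for Has2, -0.34 to 0.89 for Vcan, -0.27 to 0.47 for Bgn, -0.31 to 0.41 for Dcn, -0.65 to 0.26 for Lum, -0.67 to 0.52 for Postn, -0.23 to 0.18 for Sparc and -0.37 to 0.38 for Cd44. The pulmonary ones ranged from -0.91 to 0.14 for Hapln1, -1.20 to 0.032 for Vcan, -0.72 to 0.067 for Bgn, -0.70 to 0.33 for Dcn, -1.05 to 0.075 for Lum and -0.72 to 0.26 for Cd44. The interactions ranged from -0.72 to 0.31 for Dcn, -0.89 to 0.24 for Lum, -1.21 to 0.062 for Postn and -0.65 to 0.33 for Cd44, and the valve differences from -0.13 to 0.46 for Hapln1, -0.034 to 0.61 for Vcan, -0.0047 to 0.42 for Dcn and -0.17 to 0.38 for Lum. Other values of the 10 genes kept their sign when 1 library was left out. Some genotype differences kept their sign but moved by over 1.5 times in fold from the fit of all libraries. Pulmonary Postn ranged from -1.28 (without wild-type library 1) to -0.017 (without mutant library 1). Aortic Hyal1 ranged from 0.31 (without mutant library 2) to 1.33 (without wild-type library 4), and aortic Smoc1 from 0.33 to 1.5. Pulmonary Smoc2 ranged from 0.69 to 2.20, Comp from 0.52 to 1.41 and Adamts20 from -1.16 to -0.11. The other genotype differences of members that kept their sign moved by less from that fit. Aortic Hapln1 ranged from 0.11 to 1.23 and aortic Tnc from 0.075 to 0.81. Pulmonary Has2 ranged from -1.24 to -0.18, Tnc from -0.78 to -0.081 and Sparc from -0.62 to -0.067. The standard errors of the members with 4 libraries per group were 0.34 to 0.85, and each member had at least 128 reads in every library.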
